A study of Homo sapiens with 6 samples.

Results

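The long noncoding loci that RefSeq names were followed in PC-3 cells 4 hours after induction of tristetraprolin (TTP). The members are the rows of the authors' gene table that carry a gene symbol, hold NR_ names (the RefSeq accessions of noncoding transcripts) and no NM_ name (those of coding transcripts), span at least 1000 bases, and have a value above 0 in at least 1 group. Rows with a symbol that starts with SNOR, SCARNA, SNHG, MIR, RNU or IPW were left out by the same rule. It gave 3311 of the 406165 loci in the table, under 2303 symbols or combinations of symbols. Another 63 rows met every other part of the rule but were shorter than 1000 bases. The rows nearest to that limit were LOC91450 at 993 bases, with 0.301 in tdTom and 0.540 in TTP-tdTom FPKM, and LOC255512 at 1000 bases, with 0.708 and 0.604 FPKM.

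PC-3 is an established line of prostate adenocarcinoma cells taken from a bone metastasis. All 6 samples carried the pRetroX-Tet-On-Advanced retrovirus, whose transactivator (rtTA2) acts in the presence of doxycycline (Dox), and all received 300 ng/ml Dox for 4 hours. The 3 control samples had a second retrovirus, pRetroX-Tight-pPGK-tdTomato, and the 3 TTP-tdTom samples had pRetroX-Tight-TTP-pPGK-tdTomato. The groups thus differ by the TTP transgene and by the infection and sorting that made each line. With Dox in all samples, the design cannot tell these apart. The words "with TTP" below stand for the TTP-tdTom group. Cells were selected by G418 and by tdTomato fluorescence, and nothing in the labels says that the samples came from separate infections. The table gives 1 FPKM per group and locus (fragments per kilobase of transcript, scaled to the number of mapped fragments). No spread between samples can be given, no test between the groups was run, and every fold below is a ratio of these group values. The depth of the samples cannot be read from FPKM. ZFP36, the gene for TTP, was listed at 5.56 FPKM in tdTom and 5.54 FPKM in TTP-tdTom. Whether fragments of the transgene are counted at that locus was not tested. By the immunoblot of the study, TTP protein was present in the TTP-tdTom cells after 4 hours of Dox. Of the epithelial markers, KRT8 (20.9 and 19.1 FPKM in tdTom and TTP-tdTom), KRT18 (98.2 and 91.5), KRT19 (60.2 and 67.1) and EPCAM (15.1 and 16.8) were well above 1 FPKM, whereas CDH1, which encodes E-cadherin, was at 0.119 and 0.390.

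AU-rich elements lie most often in the 3′ untranslated regions of messenger RNAs that turn over fast. TTP, a zinc finger protein, binds these elements and brings in the enzymes that remove the poly(A) tail. Its core binding sequence is UAUUUAU. Long noncoding RNAs are mostly made by RNA polymerase II like messenger RNAs, and many are spliced and polyadenylated, but they are not translated into a conserved protein. Some stay in the nucleus, where MALAT1 sits in nuclear speckles. Others act in the cytoplasm, such as NORAD, which binds Pumilio proteins. As a class they are expressed at low levels.

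The members were a mixed group. Of the 3311 rows, 3227 were matched to the RefSeq table of assembly GRCh38.p14, 3077 by accession and 150 by symbol. That table types 2231 rows, or 67.4%, as long noncoding or antisense RNA. A further 865 rows, or 26.1%, were pseudogenes, and 129, or 3.9%, were noncoding names of genes that are typed as coding today. TUG1 is among the latter. The remaining matched rows were RMRP and RPPH1, the RNA subunits of RNase MRP and RNase P. By symbol, 1619 rows were named LOC followed by a number, 288 were antisense loci with a name ending in -AS, and 168 were LINC loci. Names have changed since the table was made, and 26 rows under 21 symbols now have a name with a prefix that the rule bars. LOC100507246, for example, is now SNHG16. NEAT1, GAS5, H19 and MEG3 were not members, since their rows also carry the name of a small RNA.

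Matches to UAUUUAU in noncoding transcripts are shown first, as this is the sequence that TTP is known to read. They are matches of sequence only, and whether TTP binds them in these cells was not tested. The members were matched to transcripts of GENCODE release 29 by RefSeq accession or name, and the longest transcript of each was searched on the sense strand for UAUUUAU, written TATTTAT in the cDNA. Each line below gives 10 bases on either side of a match, 5′ to 3′, with the heptamer in capitals. The transcripts shown are examples with 1 to 3 copies and a mean of at least 5 FPKM, and were not picked by level. Some members with the heptamer at higher FPKM than several of those shown, such as SRGAP2P2 and LOC550643, were left out.

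MALAT1, bases 3063 to 3069 of 8708: ggtaacctttTATTTATtttctaatat

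TUG1, bases 7002 to 7008 of 7469: cagatccaagTATTTATtaagctagag

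LOC440944 (THUMPD3-AS1), bases 701 to 707 of 1867: tattctaaaaTATTTATatattttttc

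LINC00261, bases 442 to 448 of 4912: gtttactaaaTATTTATttcatcaaca

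LINC00261, bases 2770 to 2776 of 4912: cataggtggaTATTTATttcatcccgg

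LOC201651 (AADACP1), bases 964 to 970 of 1285: gttttgttttTATTTATtggccgctag

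LOC201651 (AADACP1), bases 998 to 1004 of 1285: ttctccatttTATTTATtatcctgtta

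LINC00467, bases 2457 to 2463 of 3508: ttgattcattTATTTATttattcaggg

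LINC00467, bases 2461 to 2467 of 3508: ttcatttattTATTTATtcagggtctt

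LINC00467, bases 3370 to 3376 of 3508: gggcttctagTATTTATgtatcaagaa

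LOC100861402 (CERS6-AS1), bases 902 to 908 of 2890: tacctctaagTATTTATtggaggggtt

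LOC100861402 (CERS6-AS1), bases 1381 to 1387 of 2890: gggctattatTATTTATctacaaagca

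KCNQ1OT1, bases 35111 to 35117 of 91667: aatgtgtcttTATTTATgtttttaatt

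In MALAT1, at both sites of LOC201651 and at the overlapping pair of LINC00467, the heptamer lies within the nonamer TTATTTATT, a longer form of the element. Among all 163 compared members with the heptamer, 115, or 70.6%, were lower with TTP and 48 higher, beside 65% of the members without it and 77.6% of all loci with a symbol. Of the transcripts shown, KCNQ1OT1 was not lower. Others with the heptamer that were higher, and are not shown, include ST7-AS1, at 8.36 FPKM in tdTom and 9.12 FPKM in TTP-tdTom, and LOC100506334, with 3 copies, at 6.20 and 7.97 FPKM. MALAT1 was at 1074 FPKM in tdTom and 741 FPKM in TTP-tdTom, and LINC00467 at 9.51 and 6.56 FPKM. LOC201651, which RefSeq now types as a pseudogene of an arylacetamide deacetylase gene, was at 11.8 and 6.90 FPKM. LINC00261 was at 27.1 and 15.7 FPKM. LOC100861402 had the lowest ratio of those shown, with 7.13 and 3.07 FPKM and a log2 ratio of TTP-tdTom over tdTom of -1.22. KCNQ1OT1, a long nuclear transcript that runs antisense to KCNQ1 and silences imprinted neighbours, holds 3 copies in 91667 bases and was at 7.33 and 7.42 FPKM.

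Most of the members were near the lower end of what FPKM can rank. The median member was at 0.464 FPKM in tdTom and 0.533 FPKM in TTP-tdTom, against 0.995 and 1.11 FPKM for the 24565 loci with an NM_ name and a value above 0. The mean of both groups was under 1 FPKM for 2418 members, or 73%, compared with 49.7% of the NM_ loci. The authors' program marked 1568 members as not tested, its mark for loci with too few fragments. The comparison below therefore uses the 843 members, under 704 symbols, with a mean of at least 1 FPKM and a value above 0 in both groups. None of these 843 carried that mark. A further 50 members passed the mean but were listed at 0 in a group.

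Of the 843 members compared, 555, or 65.8%, had a lower FPKM in TTP-tdTom. The share was 77.6% over all 13148 loci with a symbol under the same filter and 78.6% over the 12098 NM_ loci. The median log2 ratio was -0.18 for the members and -0.24 for the NM_ loci. At least 2-fold lower were 80 members, or 9.49%, against a background of 9.32% of all loci with a symbol and 9.13% of the NM_ loci. At least 2-fold higher were 60 members, or 7.12%, against 3.11% and 2.61%. The direction of the median rests on the level at which loci are admitted. With no minimum on the mean, 47.6% of 3034 members were lower and the median log2 ratio was 0.05.

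**Figure D1:**
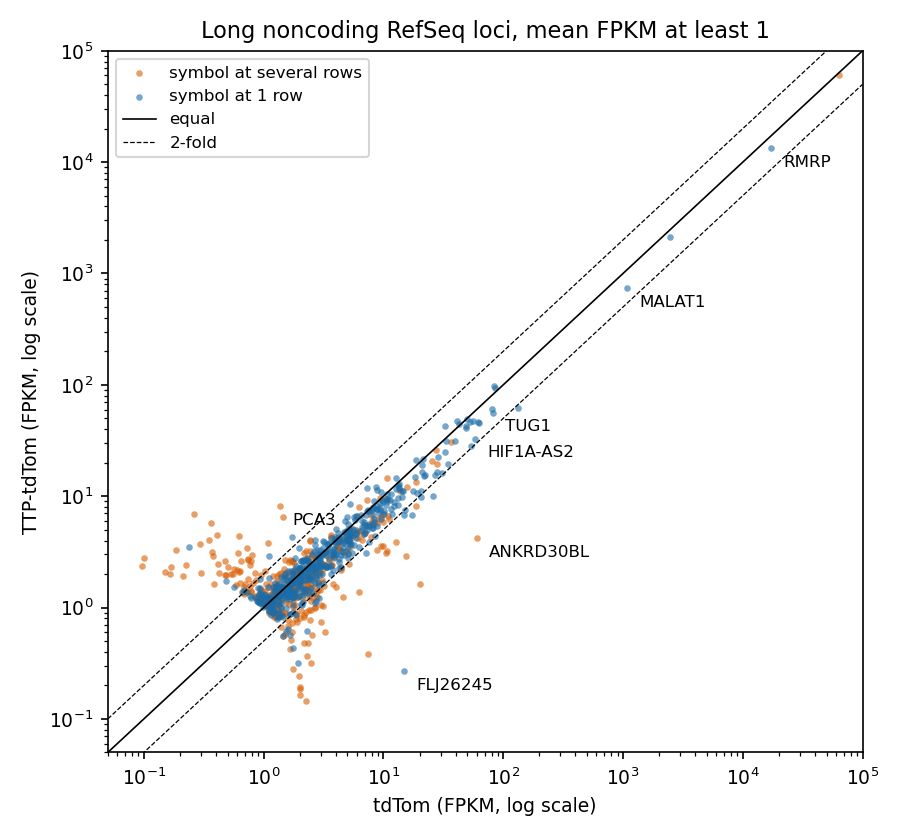
FPKM of each of the long noncoding loci with a mean of at least 1 FPKM and a value above 0 in both groups, tdTom on the x axis and TTP-tdTom on the y axis, both log scales. Each point is 1 row of the table, orange where its symbol stands at several rows and blue where it stands at 1, and the dashed lines mark 2-fold. Points far from the solid line of equal values lie mostly below about 5 FPKM and are mostly orange, while MALAT1 and TUG1 lie within the dashed lines.

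The 2-fold differences depended on how the value was reached. Both groups were at 1 FPKM or more in 667 members, of which 35, or 5.25%, were at least 2-fold lower and 6, or 0.9%, at least 2-fold higher. Of the 11259 NM_ loci at 1 FPKM or more in both groups, 8.22% were at least 2-fold lower and 0.249% at least 2-fold higher, so that the share of 2-fold lower members was below that of the NM_ loci. The 84 members at 1 FPKM or more in tdTom only gave the other 45 lower ones, and the 92 at 1 FPKM or more in TTP-tdTom only gave the other 54 higher ones. Members of these last sets passed through the group in which they are high, so that their counts say nothing about a difference.

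By level, the members with a mean of 1 to 2 FPKM spread widely to both sides, 11.7% of 411 at least 2-fold lower and 11.9% at least 2-fold higher, much as the NM_ loci of that level did (9.3% and 12.9%). Between 2 and 5 FPKM, 5.34% of 262 members were at least 2-fold lower and 4.2% at least 2-fold higher. The NM_ loci of that level gave 7.04% and 1.8%. Between 5 and 20 FPKM, 16 of 134 members, or 11.9%, were at least 2-fold lower and 0 were 2-fold higher. The NM_ loci there gave 10.6% and 0.0446%. Levels are means of both groups, so that a locus can reach one through the group in which it is high. At 20 FPKM and over, 29 of 36 members, or 80.6%, were lower at any size, and 2, or 5.56%, at least 2-fold. The shares of the NM_ loci were 91.4% and 8.61%. The median log2 ratio was -0.08 at 1 to 2 FPKM, -0.20 at 2 to 5, -0.36 at 5 to 20 and -0.32 at 20 and over. In the NM_ loci it was -0.03, -0.22, -0.29 and -0.26 at the same levels.

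**Figure D2:**
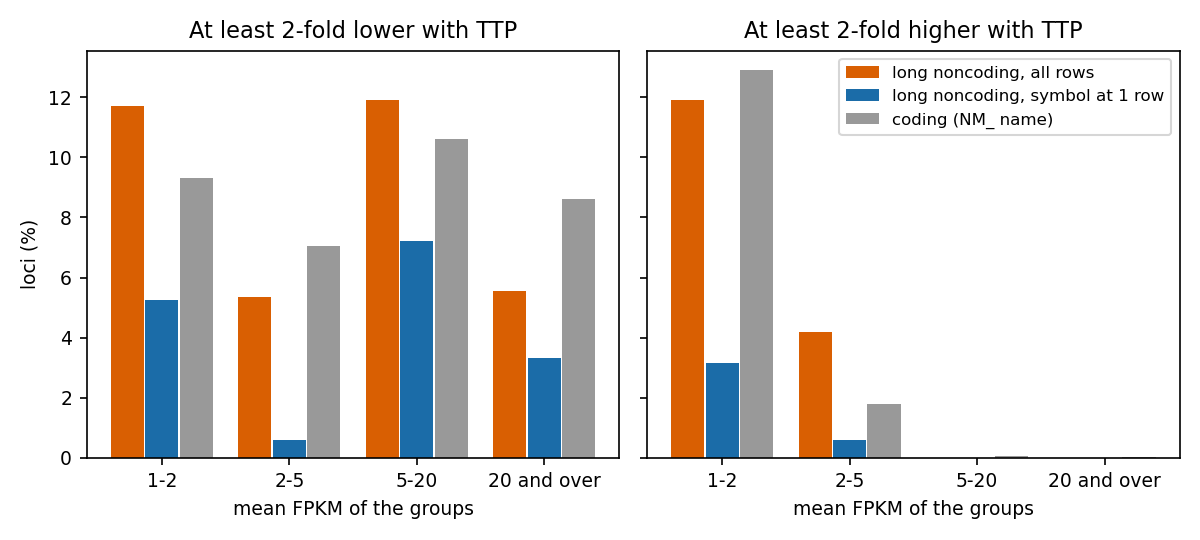
Percentage of loci at least 2-fold lower (left) and at least 2-fold higher (right) in TTP-tdTom, by the mean FPKM of the groups. Bars are all compared long noncoding rows (orange), those whose symbol stands at 1 row (blue) and loci with an NM_ name (grey). Ratios of 2 and more toward TTP-tdTom are found almost only below 5 FPKM.

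The members with the highest FPKM were rows named for short structured RNAs. BCYRN1 (BC200), a neuronal RNA that inhibits translation and shares its sequence with Alu repeats, was listed at 64047 FPKM in tdTom and 60862 FPKM in TTP-tdTom. RMRP was at 17059 and 13457 FPKM, and RPPH1 at 2452 and 2136 FPKM. The RefSeq lengths of these genes are 200, 270 and 341 bases, and they meet the rule only because the interval in the table is longer. The row of BCYRN1 spans chromosome X from 70430035 to 70948962. This interval of 518928 bases overlaps a coding locus, and whether the fragments counted in it come from BC200 was not tested. FPKM of such short RNAs divides by very few bases, so that their level is not comparable with that of long transcripts. The log2 ratio was -0.07 for BCYRN1, -0.34 for RMRP and -0.20 for RPPH1. BCYRN1 stands at 15 rows with the same interval, and this is its highest. The log2 ratios of its 12 compared rows ran from -1.71 to -0.07, and 2 of them were at least 2-fold lower.

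MALAT1 was the highest of the long transcripts measured in both groups. Its interval in the table, in GRCh37 coordinates like all positions here, is chromosome 11 from 65265223 to 65275440, and 69.0% of its tdTom FPKM was left in TTP-tdTom. TUG1, a transcript linked to Polycomb silencing, lies on chromosome 22 from 31365634 to 31375662. It was at 81.5 FPKM in tdTom and 56.3 FPKM in TTP-tdTom, again with 69.0% left. NORAD, listed as LOC647979 on chromosome 20 from 34633540 to 34638882, keeps genome stability by binding Pumilio proteins and was at 55.5 and 47.2 FPKM. All of these were lower with TTP by less than 2-fold.

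LOC100507246 (SNHG16) is a host gene of small nucleolar RNAs on chromosome 17 from 74553846 to 74561430. It had the lowest ratio among the 15 highest members, leaving out those listed at 0 in a group. Its FPKM was 132.9 in tdTom and 61.3 in TTP-tdTom, a log2 ratio of -1.12. FLJ31306 (PSMA3-AS1) was at 62.8 and 45.8 FPKM, LOC440944 (THUMPD3-AS1) at 61.9 and 46.0 FPKM and LOC100505817 (LINC02582) at 81.2 and 60.8 FPKM. These antisense and intergenic transcripts kept between 73.0% and 74.9% of their tdTom level.

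Others of the highest members were level or higher with TTP. LOC541471 (MIR4435-2HG) was at 49.5 FPKM in tdTom and 49.8 FPKM in TTP-tdTom. LINC00152, a cytoplasmic cancer-associated transcript now named CYTOR, was at 33.2 and 31.2 FPKM. LOC572558 (PGM5-AS1) was at 84.8 and 93.9 FPKM. HSP90AB2P, a pseudogene of a heat shock protein gene, was at 83.3 and 96.6 FPKM. Pseudogenes share sequence with their parent genes, and how the authors' counting divided fragments between them is not given in the sources used here.

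**Figure D3:**
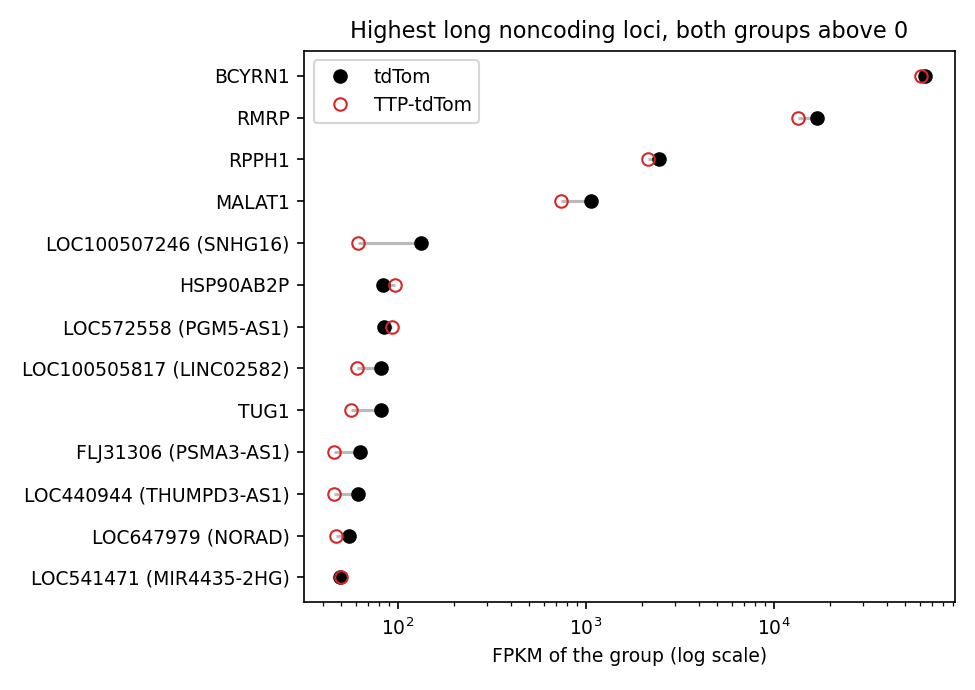
Group FPKM on a log scale of the 13 members with a value above 0 in both groups among the 15 with the highest mean, with the present RefSeq name in brackets where it differs. Filled points are tdTom and open red points TTP-tdTom. MALAT1 and SNHG16 lie lower in TTP-tdTom, while HSP90AB2P and PGM5-AS1 lie slightly higher.

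Named long noncoding RNAs with a known role were taken from 9 lists of 78 symbols in all. Of these, 37 were members, and 20 passed the filter when each symbol was represented by its highest row. The lists were matched on the symbols in the table, so that transcripts that stand there under another name, such as NORAD (LOC647979), ZFAS1 (ZNFX1-AS1), FIRRE (LOC286467) and LINC-PINT (FLJ43663), are not in these counts. At the highest row 13 of the 20 were lower with TTP, 1 at least 2-fold lower and 2 at least 2-fold higher, with a median log2 ratio of -0.08. Over all loci with a symbol, 77.6% were lower, 9.32% at least 2-fold lower and 3.11% at least 2-fold higher.

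From the list of small RNA hosts, DLEU1, which stands in the same interval as DLEU2, was at 7.64 FPKM in tdTom and 5.62 FPKM in TTP-tdTom. DLEU2, the host of miR-15a and miR-16-1 that is often deleted in leukaemia, was at 5.18 and 2.46 FPKM at its highest row, a log2 ratio of -1.08. Its other compared rows disagreed, from 3.79 and 1.62 FPKM to 0.718 and 1.37 FPKM. EPB41L4A-AS1 was at 18.8 and 21.2 FPKM. FTX, of the X inactivation centre, was at 3.17 and 2.43 FPKM at its highest row, with other rows at 1.76 and 0 FPKM, 1.47 and 0 FPKM and 0.753 and 1.00 FPKM. JPX, an activator encoded in the same centre, was at 25.5 and 20.7 FPKM at its highest row. The other rows of JPX went both ways, with 1 at 3.62 and 0 FPKM, 1 at 0.696 and 0.177 FPKM and 1 at 0.414 and 2.44 FPKM among them.

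Of the HOX cluster transcripts, HOTAIRM1 was at 7.25 FPKM in tdTom and 5.42 FPKM in TTP-tdTom, and HOTTIP at 1.31 and 1.25 FPKM. HOXA11-AS was at 3.64 and 4.26 FPKM, and HOXD-AS2 at 2.27 and 3.21 FPKM. HOXB-AS3 was at 1.66 and 1.53 FPKM. None of these reached 2-fold at the highest row of the symbol.

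Of the growth arrest and p53 transcripts, CDKN2B-AS1 (ANRIL), which represses the CDKN2A and CDKN2B inhibitors, was at 2.68 FPKM in tdTom and 4.02 FPKM in TTP-tdTom, a log2 ratio of 0.59. TP53TG1 was at 5.11 and 4.86 FPKM. From the list of cancer-associated transcripts, TP73-AS1 was at 13.5 and 12.1 FPKM. From that of NF-kB and inflammation, LINC00263 was at 3.15 and 3.01 FPKM.

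PCA3, the prostate cancer transcript measured in urine tests, stood at a pair of rows on chromosome 9 from 79226292 to 79521003. One row was at 1.36 FPKM in tdTom and 8.14 FPKM in TTP-tdTom, a log2 ratio of 2.58. The other was at 0.309 and 0.422 FPKM. Both rows carry the same accession and interval, which overlaps a coding locus, and the table does not say which of them holds the annotated exons. AFAP1-AS1 likewise had a row at 0.842 and 2.06 FPKM and a row at 0.851 and 0.738 FPKM.

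Most of the large ratios were at such repeated rows. A symbol or combination stood at 1 member row in 1857 cases and at several in 446, with up to 32 rows for LOC100287944. Of the 488 compared members whose symbol stands at 1 row, 19, or 3.89%, were at least 2-fold lower and 7, or 1.43%, at least 2-fold higher. Of the 355 whose symbol stands at several, 61, or 17.2%, were lower and 53, or 14.9%, higher by that much. The NM_ loci showed 8.62% and 0.303% at symbols with 1 row and 10.7% and 10% at symbols with several. All these shares include loci at 1 FPKM or more in 1 group only. Members at 1 row also had the higher level, with a median mean of 2.50 FPKM against 1.72 FPKM.

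There were 71 symbols with at least 2 compared rows, and in all 71 these rows shared a single interval. Their log2 ratios lay a median of 1.04 apart. In 34 symbols they had opposite signs, and in 6 symbols at least 1 row was 2-fold lower and at least 1 was 2-fold higher. LOC728558 (ENTPD1-AS1) had a row at 1.98 FPKM in tdTom and 0.241 FPKM in TTP-tdTom and a row at 0.302 and 2.03 FPKM. LOC284294 (LINC01924) had rows with log2 ratios of -2.64 and 2.94. MLK7-AS1 had 7 compared rows between -1.96 and 1.85, of which 2 were at least 2-fold lower and 2 at least 2-fold higher.

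**Figure D4:**
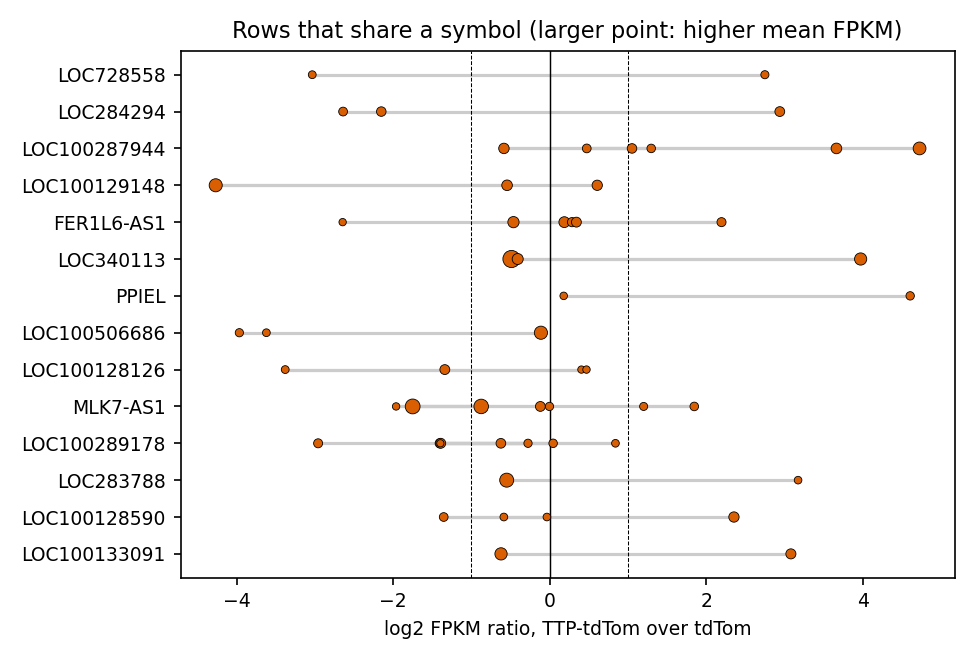
The log2 FPKM ratio of TTP-tdTom over tdTom at each compared row of the 14 symbols whose rows lie farthest apart. Each point is a row, and a larger point has a higher mean FPKM. Rows with the same symbol and interval lie on both sides of 0 in most of these symbols.

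The members with the lowest ratios belong largely to such symbols. FLJ26245 (LINC02167) was the exception, with 1 row on chromosome 16 from 34980894 to 34990995, 14.7 FPKM in tdTom and 0.270 FPKM in TTP-tdTom, a log2 ratio of -5.77. ANKRD30BL had a row at 59.9 and 4.22 FPKM and a row at 0.531 and 0.381 FPKM. LOC100129148 had a row at 7.38 and 0.383 FPKM and rows at 2.36 and 1.62 FPKM and at 1.47 and 2.24 FPKM. Of the 12 lowest rows, 1 is not reported here, and the remaining 8 were of LOC100506686 (IQCH-AS1, at 2 of its 9 rows), MESTIT1, LOC100128126, LOC728558, LOC100289178, FER1L6-AS1 and LOC284294, each between 1.77 and 2.47 FPKM in tdTom and at most 0.369 FPKM in TTP-tdTom. The highest row of LOC100506686 was not among them, at 4.14 and 3.83 FPKM.

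The 12 highest ratios were all of rows under 7 FPKM. All were under 1 FPKM in tdTom and so passed the filter through the group in which they are high. All but TMEM50B were of symbols at several rows. LOC400654 (LINC01538) was at 0.0994 FPKM in tdTom and 2.77 FPKM in TTP-tdTom. LOC100287944 had rows at 0.260 and 6.89 FPKM and at 0.294 and 3.73 FPKM. LOC340113 (LINC02120) had a row at 0.362 and 5.69 FPKM, whereas its highest row was at 18.7 and 13.3 FPKM. TMEM50B, at the noncoding name of a coding gene, was at 0.236 and 3.52 FPKM and stood at 1 member row. PPIEL, LOC349160, LOC100506025, LOC100505746, ZBTB20-AS1, LOC100287814 and LOC100130744 made up the rest, between 2.00 and 4.52 FPKM in TTP-tdTom and at most 0.409 FPKM in tdTom.

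Members at 1 row with a mean of at least 5 FPKM leave out the repeated rows and the lowest means. This set was chosen after the values were seen. The minimum is on the mean of both groups, so a locus can pass through the group in which it is high. FLJ26245, at 14.7 FPKM in tdTom and 0.270 FPKM in TTP-tdTom, and LOC100861402, at 7.13 and 3.07 FPKM, passed in that way. The 2-fold counts here therefore do not by themselves show a difference. Of the 127 members in the set, 102, or 80.3%, were lower with TTP. At least 2-fold lower were 8, or 6.3%, and 0 were at least 2-fold higher. The NM_ loci at 1 row and of that level gave 88%, 9.67% and 0.0309%. The median log2 ratio was -0.31 for the members and -0.27 for the NM_ loci.

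The 8 members at least 2-fold lower in that set were FLJ26245, LOC100507246 and 6 others of several kinds. LOC100505687 (SNHG33) was at 17.4 FPKM in tdTom and 6.73 FPKM in TTP-tdTom. LOC100506433 (LINC00648), an intergenic transcript, was at 14.9 and 6.78 FPKM, and LOC100861402 (CERS6-AS1), antisense to a ceramide synthase gene, had the values given beside its sequences. SBDSP1, a pseudogene of the ribosome maturation gene SBDS, was at 25.8 and 9.98 FPKM. ZNF724P, a zinc finger gene then named as a pseudogene, was at 20.6 and 9.73 FPKM. LOC100506710 (EBLN3P), derived from an ancient bornavirus-like element, was at 15.3 and 7.51 FPKM.

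The largest ratios in the other direction in this set were small. HIST2H2BA, a histone H2B pseudogene, was at 7.23 FPKM in tdTom and 11.8 FPKM in TTP-tdTom. LOC285540 (SEPSECS-DT), a divergent transcript of SEPSECS, was at 5.24 and 8.48 FPKM. RPL13AP20, a pseudogene of a ribosomal protein gene, was at 8.65 FPKM in tdTom and 1.39 times that in TTP-tdTom. SFTA1P, a surfactant-associated pseudogene, was at 32.9 and 42.6 FPKM. Each was between 1.30 and 1.63 times the tdTom value.

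Members listed at 0 in 1 group numbered 277. Of the 3311 members, 141, or 4.26%, were at 0 in TTP-tdTom only and 136, or 4.11%, at 0 in tdTom only. Over all 28485 loci with a symbol and a value above 0 these shares were 2.71% and 2.93%, and over the NM_ loci 2.23% and 2.56%. No fold is given against a group at 0. The value in the other group was low in most, with a median of 0.770 FPKM for those at 0 in TTP-tdTom and 0.869 FPKM for those at 0 in tdTom. Again 108 and 105 of them had a symbol at several rows.

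A few were high in the group that had them. LOC285205 (LINC00636), on chromosome 3 from 107602052 to 107647785, was listed at 0 FPKM in tdTom and 2354 FPKM in TTP-tdTom at 1 row, and at 0.777 and 0.406 FPKM at another row with the same accession and interval. LOC644189 (ACOT4P1) on chromosome 19 was at 205.6 FPKM in tdTom and listed at 0 in TTP-tdTom, with its other row at 0.325 and 0.127 FPKM. LINC00310 on chromosome 21 was at 73.0 FPKM in tdTom and listed at 0 in TTP-tdTom, while its other row was at 1.22 and 1.41 FPKM. In each of these loci the high value stood at 1 row and the row beside it was near 1 FPKM or under it in both groups.

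The same form was seen at GGTA1P, with 14.7 FPKM in TTP-tdTom at a row listed at 0 in tdTom, and at KLKP1, a kallikrein pseudogene, with 4.69 FPKM in tdTom at a row listed at 0 in TTP-tdTom. Of the other rows highest in TTP-tdTom and at 0 in tdTom, LOC100128554 was at 8.30 FPKM, LOC100188947 (HECTD2-AS1) at 6.86 FPKM, INMT-FAM188B at 6.40 FPKM and TMEM72-AS1 at 5.92 FPKM. At 0 in TTP-tdTom, LOC100628307 (DIO2-AS1) was at 4.33 FPKM in tdTom and LOC286186 (LINC01299) at 3.71 FPKM.

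Antisense loci could be set beside the coding gene that their symbol names. Of 144 antisense symbols, 137 had a coding partner in the table, and in 58 pairs both partners passed the filter. The antisense locus was the lower expressed in 49 of the 58, with a median mean of 2.10 FPKM against 9.78 FPKM for the partners. Both partners were lower with TTP in 30 pairs and both higher in 3. The antisense locus was higher and the partner lower in 17, and the reverse held in 8. Over all loci with a symbol 77.6% were lower, and over the NM_ loci 78.6%. The median log2 ratio was -0.21 for the antisense loci and -0.27 for their partners. In 42 pairs the table gives both the same interval, and in the others the intervals do not overlap. The strand of the loci was not analysed here. The libraries were strand-specific, but whether the counting used strand is not given in the sources used here, so that fragments of the partners may be shared.

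HIF1A-AS2 had the highest mean FPKM of the compared members whose symbol in the table ends in -AS, with or without a number. It lies on chromosome 14 from 62162119 to 62218878, the interval also given for the gene of the hypoxia factor HIF-1α, and was at 57.9 FPKM in tdTom and 32.9 FPKM in TTP-tdTom. HIF1A itself was at 550.2 and 204.2 FPKM, so that the log2 ratio was -0.81 for the antisense locus and -1.43 for the gene. ZEB1-AS1 was at 2.19 and 1.35 FPKM and ZEB1, a repressor of E-cadherin, at 27.2 and 11.8 FPKM. WDFY3-AS2 was at 2.88 and 1.21 FPKM beside WDFY3 at 9.28 and 6.01 FPKM. In these pairs both partners were lower, the coding gene by more in HIF1A and ZEB1 and the antisense locus by more in WDFY3.

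The ratios of the partners were at least 2-fold apart in 9 pairs. WWTR1-AS1 was at 1.06 FPKM in tdTom and 1.25 FPKM in TTP-tdTom, while WWTR1, which encodes the Hippo pathway coactivator TAZ, was at 161.2 and 68.7 FPKM. CDKN2B-AS1, whose values are given above, stood beside CDKN2B at 1.93 and 1.30 FPKM. These were the only 2 of the 9 whose antisense symbol stood at 1 row. CFLAR-AS1, FBXL19-AS1 and AFAP1-AS1 were higher with TTP at their highest row, by log2 ratios of 1.90, 1.75 and 1.29, beside partners at -0.18, 0.11 and -0.68. KANSL1-AS1 and TRAF3IP2-AS1 were lower, at -1.37 and -1.04, beside partners at 0.16 and 0.15. BDNF-AS1 and FER1L6-AS1 were at -0.28 and -0.46, beside BDNF at 2.11 and FER1L6 at 1.96. Except for the pairs of WWTR1 and CDKN2B, each of the 9 has a locus that was under 1 FPKM in 1 group and so passed through the group in which it is high, which leaves the distance without weight.

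**Figure D5:**
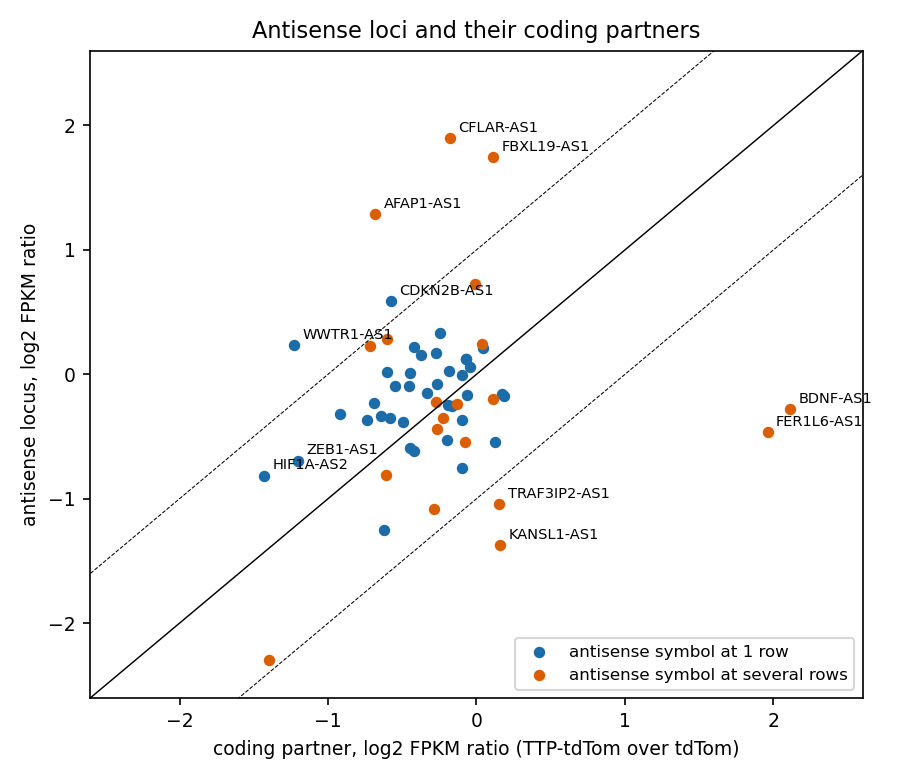
The log2 FPKM ratio (TTP-tdTom over tdTom) of 58 antisense loci on the y axis against that of their coding partners on the x axis. Blue points are antisense symbols at 1 row and orange points those at several, the solid line marks equal ratios and the dashed lines a 2-fold distance. Of the 9 labelled points beyond the dashed lines, all but WWTR1-AS1 and CDKN2B-AS1 are orange, and HIF1A-AS2 and ZEB1-AS1 are labelled for reference.

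The antisense locus was nearly level in other pairs. ZNFX1-AS1 (ZFAS1), a host of small nucleolar RNAs, was at 43.0 FPKM in tdTom and 44.6 FPKM in TTP-tdTom, beside ZNFX1 at 14.8 and 14.4 FPKM. TP73-AS1, with a log2 ratio of -0.16, was above its partner TP73, which was at 1.15 and 1.29 FPKM. HNRNPU-AS1 was lower, at 14.3 and 9.90 FPKM with a log2 ratio of -0.53, beside HNRNPU at 188.1 and 164.2 FPKM.

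By gene type, the 558 compared long noncoding or antisense RNAs had a median log2 ratio of -0.21 and the 227 pseudogenes one of -0.13. By name, the 403 LOC loci had a median of -0.22, the 93 antisense loci -0.16 and the 27 LINC loci -0.003. Members whose interval overlaps an NM_ locus numbered 421 of the 843 and had a median of -0.21, and the 422 that overlap none had one of -0.13. The median of the NM_ loci was -0.24.

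The UAUUUAU sequence shown above was less common in the members than in coding transcripts. A transcript was found for 754 of the 843 compared members, or 89.4%, and for 99.6% of the NM_ loci. The heptamer was present in 163 of the 754, or 21.6%, and in 38.9% of the NM_ transcripts. The nonamer TTATTTATT was present in 5.17% and 9.98%. The members' transcripts were also shorter, with a median of 1963 bases against 3324.5 bases, and those with the heptamer were longer than those without, 2890 against 1792 bases.

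Members with the heptamer had a median log2 ratio of -0.26, and those without it -0.15. By number of copies the median was -0.15 with 0 copies, -0.20 with 1 and -0.33 with 2 or more, over 591, 102 and 61 members. For the NM_ loci, whose whole transcripts were searched, it was -0.17, -0.35 and -0.55. Restricted to members at 1 row, a setting chosen after seeing the data, it was -0.14, -0.33 and -0.37 over 329, 61 and 44 members.

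Base composition moved with the ratio as well. Members with a GC content under 40% had a median log2 ratio of -0.39, those from 40 to 45% -0.24, those from 45 to 50% -0.18 and those at 50% or more -0.15. For the NM_ loci the medians were -0.66, -0.40, -0.24 and -0.12 in the same bins. At 1 row, members gave -0.41, -0.35, -0.14 and -0.13. The heptamer is made of A and U alone, and the parts of GC content, transcript length and heptamer in these ratios were not tested.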

How the data were processed

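Per the labels and the methods, strand-specific paired-end RNA-Seq libraries were made from 3 tdTom and 3 TTP-tdTom samples. The authors aligned reads with TopHat2 (2.0.13 in the processing notes) to Hs37D5, which is GRCh37 with decoy sequence, and assembled and compared transcripts with Cufflinks (2.2.1). The deposited table holds 1 FPKM value per group and locus. Its interval is that of the assembled bundle, which rows can share, and starts are counted from 1 here. Its other columns (fold change, test statistic, p and q) give the comparison made by the authors, and no use was made of them.

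Ratios were TTP-tdTom over tdTom, at loci with a mean of at least 1 FPKM and a value above 0 in both groups. As the table holds no value per sample, no test was run. The members and lists were chosen with earlier results of these data known. Named were listed transcripts with a mean of at least 1 FPKM, the 15 highest, the 12 lowest and 12 highest ratios, the 6 highest listed at 0 in each group, and antisense pairs at least 2-fold apart. Some further members are named from sets said to be chosen after the values were seen, or as examples of a group. Gene types came from RefSeq (GRCh38.p14) and sequences from GENCODE release 29, whose coordinates were not used. The rule and the calls were tested on simulated data. Loci on chromosome Y and XIST are not named. Of the symbols that this rule names, 1, with 2 of its rows among those named, is not reported here. Alternatives were pseudocounts of 0.1 and 1, other minimum levels and folds, centring, rescaling, longer intervals, no coding overlap and 1 row per symbol. Python 3.11.15, numpy 2.4.6, pandas 2.3.3, scipy 1.17.1 and matplotlib 3.10.9 were used.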

Additional observations from a re-analysis of the deposited data

How the results depend on the processing

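No paired analysis was possible because the table holds 1 value per group, and for the same reason no replicate could be left out. The 80 members at least 2-fold lower were 52 with a pseudocount of 1, 335 with no minimum level, 18 at a mean of at least 5 FPKM, 177 at 1.5-fold, 30 at 3-fold, 22 without overlap with NM_ loci, 52 at 1 row per symbol (the highest) and, chosen after seeing the data, 19 at symbols with 1 row. The 60 at least 2-fold higher were 491 with no minimum level, 0 at a mean of at least 5 FPKM, 23 without overlap, 39 at 1 row per symbol and 7 at symbols with 1 row. Higher members outnumbered lower ones with a pseudocount of 1 (68 against 52), after centring (69 against 58) and at 3-fold (43 against 30). The same held with no minimum level and, at 23 against 22, without overlap. At every other setting more members were lower. The share lower, 65.8%, was 47.6% with no minimum level and 45.6% after centring on the NM_ median, so that both turned the direction. Centring shifts each locus alike, so its turn restates that the members' median lies above that of the NM_ loci. It was 82.9% at a mean of at least 5 FPKM, 60.8% after rescaling to the same sum, 61.8% without overlap and 70.1% at symbols with 1 row. The median log2 ratio, -0.18, was 0.05 with no minimum level (0.047) and 0.05 after centring (0.055), -0.11 with a pseudocount of 1, -0.36 at a mean of at least 5 FPKM, -0.12 after rescaling and -0.13 without overlap. Of the 277 members at 0 in 1 group, 118 had at least 1 FPKM in the other, and of the 9 antisense pairs, 2 had an antisense symbol at 1 row. Except where the setting itself removes loci, the cause was not tested. The other alternatives moved the counts by less than 1.5 times, and the difference in median log2 ratio between members with and without the heptamer, -0.11, was -0.21 with the nonamer and -0.21 at symbols with 1 row. FPKM shows no depth, and the methods give only the number of read pairs aimed at per sample. The exact number of fragments behind the low ratios is therefore unknown.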
